A study of Drosophila melanogaster with 2 samples.

Results

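The genes described here encode the subunits of the vacuolar proton pump (V-ATPase) of Drosophila melanogaster, and the data are ChIP-seq peaks of the CG12299 protein at their promoters. They were taken as every protein-coding gene of the Ensembl annotation whose symbol begins with Vha, which gave 33 of 13968 protein-coding genes. Of these, 14 carry the number 1 or no number and are called first copies below, 15 carry the numbers 2 and up and are called further copies, and the 4 VhaM9.7 genes carry letters and were kept apart. A gene was counted as having a peak where a peak summit lay within 1000 bp of any of its annotated transcription start sites (TSSs).

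Chromatin came from whole embryos aged 0 to 24 h of a transgenic line that stably expresses CG12299 with green fluorescent protein (GFP) at the C terminus, and the tagged protein was precipitated with anti-GFP. There were 2 biological replicates of this 1 group and no second condition, so no change between conditions can be measured. The promoter that drives the transgene is not named in the labels, and the embryos were not sorted by cell type or narrower age. The authors deposited a list of 30000 peaks for each replicate, a pooled list of 30000 peaks and a thresholded list of 3672 peaks that passed their reproducibility threshold, which are the 3672 peaks of highest signalValue in the pooled list. signalValue is the authors' peak score, used here only to describe and rank peaks within 1 list, and rank 1 is the strongest peak of a list. Depth is unknown because the lists hold no read counts.

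The V-ATPase is a rotary machine that uses ATP to move protons across membranes, and so acidifies lysosomes, endosomes and the lumen of several epithelia. Its peripheral V1 sector hydrolyses ATP and its membrane-bound V0 sector carries the protons. Flies hold several gene copies for many of the subunits; some copies are used in many tissues and others are restricted, for example to the testis. In animals the pump sits upstream of the growth kinase mTOR at the lysosome, and transcription factors of the Mitf/TFEB family bind E-boxes in the promoters of its genes.

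Thresholded peaks were found at 13 of the 33 genes, or 39.4%, where 21.7% of all protein-coding genes had one. They were at 9 of the 14 first copies (64.3%), at 3 of the 15 further copies (20%) and at 1 of the 4 lettered genes. The first copies with one were Vha14-1, Vha16-1, Vha36-1, Vha68-1, Vha100-1, VhaPPA1-1, Vha13, Vha44 and Vha55, and the further copies were Vha68-2, Vha100-2 and Vha16-5. VhaM9.7-b was the lettered gene.

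The sequence at the summit is shown for 4 of these genes, in the genes' 5′ to 3′ direction and with 50 bases on each side of the summit. They are shown so that summits of first, further and lettered copies can be read beside each other, and they rank 1310, 1714, 1937 and 2164 in the thresholded list. The 3 stronger peaks, at Vha14-1, Vha100-2 and Vha16-1, are not shown: that of Vha100-2 overlaps an annotated UTR, and the other two lie on a chromosome arm from which no sequence is printed. The bases were read from the Release 6 assembly (dm6), at chr2L:12974161-12974261 on the plus strand for Vha68-2, chr3R:12627881-12627981 on the minus strand for Vha55, chr3L:21539507-21539607 on the plus strand for VhaM9.7-b and chr2L:13004190-13004290 on the minus strand for Vha68-1. Capitals mark the searched words TCGATA and GAGAG, the latter present here as its reverse complement CTCTC.
Vha68-2: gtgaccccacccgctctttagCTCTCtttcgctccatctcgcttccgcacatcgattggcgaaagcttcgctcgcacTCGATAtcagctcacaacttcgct
Vha55: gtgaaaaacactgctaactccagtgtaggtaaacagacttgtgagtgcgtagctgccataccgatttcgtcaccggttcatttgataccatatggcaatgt
VhaM9.7-b: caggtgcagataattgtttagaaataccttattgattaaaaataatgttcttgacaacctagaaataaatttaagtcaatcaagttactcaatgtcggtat
Vha68-1: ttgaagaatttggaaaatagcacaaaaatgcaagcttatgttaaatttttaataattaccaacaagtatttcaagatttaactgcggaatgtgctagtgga
The 4 windows differ in base composition. GC content was 55.4% at Vha68-2 and 44.6% at Vha55, against 27.7% at VhaM9.7-b and 28.7% at Vha68-1. None of the searched words was found in the last 3.

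Among the V1 genes, Vha68 encodes the catalytic A subunit and has 3 copies. Vha68-2, the copy most used in fly genetics, had the strongest peak of them, at chr2L:12974019-12974402 with a signalValue of 186.5 and rank 1310 of the thresholded list. Its summit lay 111 bp upstream of the nearest TSS, with no other gene start within 1000 bp. It ranked 1485 in replicate 1 and 950 in replicate 2. The peak of Vha68-1, at chr2L:13004048-13004431, reached 141.5 and rank 2164, and ranked 2878 and 2330 in replicates 1 and 2. So the copy numbered 2 ranked ahead of the copy numbered 1 in each replicate. Vha68-1 is arranged head-to-head with mTor, the kinase of the TOR complexes: the summit lay 133 bp upstream of Vha68-1 and 240 bp upstream of mTor. Vha68-3 had no summit in range in any of the 4 lists, although it begins just downstream of Vha68-2.

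Vha55, the only copy of the B subunit, had a peak of 160 at chr3R:12627739-12628122, rank 1714. Its summit lay 102 bp upstream of Vha55 and 100 bp upstream of Snx3, a sorting nexin gene on the other strand. Ranks were 2335 in replicate 1 and 1571 in replicate 2, so both replicates held it among their 3672 strongest. Vha44, the C subunit that clamps V1 to V0, had the weakest of the strongest peaks at the 13 genes, with 113.6 and rank 3279 at chr2R:16336530-16336913. It lay 85 bp upstream of Vha44 and 38 bp upstream of Hmgs, the HMG-CoA synthase gene, and ranked 3027 and 2521 in replicates 1 and 2.

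Vha36 encodes the D subunit of the central shaft. Vha36-1 had a peak of 137.7 at chr2R:15541201-15541584, rank 2289, with the summit 42 bp upstream of its own TSS and 30 bp upstream of that of CG8187. The antisense gene asRNA:CR45927 also starts within 1000 bp of this summit. Replicate ranks were 2150 and 2785. Vha36-2 had no summit in range in any list. Vha36-3 had a pooled summit 1 bp from its TSS with a signalValue of 35.5, rank 21732 of the pooled list, and AANATL7 starts nearby.

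Vha14-1, the F subunit of the shaft, had the highest signalValue of all 33 genes, 262 at rank 679, in a peak at chr2R:15678979-15679362. That summit lay 913 bp downstream of the Vha14-1 TSS, past the 3′ end of this short gene, and 215 bp upstream of Gmppa, a GDP-mannose pyrophosphorylase gene. A separate pooled summit, 47 bp upstream of Vha14-1 itself, had a signalValue of 56.7 and is not in the thresholded list. The peak beyond the gene ranked 694 in replicate 1 and 658 in replicate 2, so it is high in both, and the start of Gmppa is the nearer one. Vha14-2 had no summit in range in any list.

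Vha13, the G subunit of the peripheral stalk, had a peak of 127.6 at chr3R:19644140-19644523, rank 2641. Its summit lay 54 bp downstream of the TSS, inside the gene, and 694 bp upstream of Nup58, a nuclear pore gene. It ranked 1824 in replicate 1 but 5188 in replicate 2, outside the 3672 strongest there. VhaSFD, the regulatory H subunit, was the nearest below the threshold: its pooled summit, 43 bp downstream of the TSS, had a signalValue of 87.1 and rank 5225, where the lowest thresholded peak has 107. Vha44 at 113.6 was the nearest gene above it. Vha26, the E subunit of the stalk, had a pooled summit of 69.1 at rank 7571, 356 bp downstream of its TSS. The strongest Vha26 summit lay elsewhere in each replicate, 141 bp downstream in replicate 1 and 664 bp downstream in replicate 2. These ranked 10879 and 14997, lower than the strongest in the pooled list.

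Among the V0 genes, Vha100 encodes the large a subunit, which forms the proton path together with the c ring and, in yeast, directs the pump to its membrane. Vha100-2 had the second highest peak of the 33 genes, 248 at rank 764 (chr3R:18397008-18397391), and a weaker one of 110.3 at rank 3454 (chr3R:18397639-18398022). Both summits lay inside the gene, 272 and 903 bp upstream of an internal TSS, and the stronger one 205 bp downstream of the start of Vti1b, a SNARE gene. With only the start of the gene record used as TSS, Vha100-2 had no thresholded summit in range. The stronger peak ranked 1118 in replicate 1 and 608 in replicate 2. The weaker one ranked 4832 and 2537, among the 3672 strongest in replicate 2 only.

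Vha100-1, known for its role in neurons, had a peak of 116.1 at rank 3155 (chr3R:29130991-29131374), 10 bp upstream of its TSS. The start of dgt6, an augmin subunit gene, lay 211 bp away. It ranked 3032 in replicate 1 and 4223 in replicate 2. The other 3 copies had no pooled summit in range. Vha100-3 had a summit in replicate 2 only, at rank 19325, Vha100-5 had one in replicate 1 only, at rank 28057, and Vha100-4, next to Vha100-2 on 3R, had none in any list.

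Vha16 encodes the proteolipid c subunit that forms the rotating ring. Vha16-1 had a peak of 224.5 at rank 919 (chr2R:6633066-6633449), the highest among first copies whose own TSS is the nearest. The summit lay 168 bp upstream, with no other gene start within 1000 bp, and ranked 701 in replicate 1 and 1277 in replicate 2. Vha16-5 had a peak of 129.5 at rank 2560 (chr2L:10737209-10737592), 358 bp upstream of its TSS. It shares this interval with CG12299, the gene of the profiled protein: the summit lay 56 bp downstream of the CG12299 TSS. It ranked 4933 in replicate 1 and 1843 in replicate 2. The remaining copies were low: Vha16-2 and Vha16-3, neighbours on 3L, had pooled summits of 33.4 and 32.9 at ranks 24012 and 24576, and Vha16-4 had none in any list. The Vha16-2 summit lay nearer to asRNA:CR46049 than to Vha16-2.

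VhaPPA1 encodes a related proteolipid of the ring. VhaPPA1-1 had a peak of 121.2 at rank 2918 (chr3R:14904117-14904500), 248 bp upstream of its TSS and with no other gene start in range. It ranked 3956 in replicate 1 and 3172 in replicate 2. VhaPPA1-2, its neighbour on 3R, had no summit in range in any list. VhaAC39 encodes the d subunit that couples the shaft to the ring, and here neither copy had a thresholded summit: VhaAC39-1 had a pooled one of 56.5 at rank 10408 and VhaAC39-2 one of 47.9 at rank 13317.

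VhaM9.7 encodes the small e subunit. VhaM9.7-b had a peak of 150.8 at rank 1937 (chr3L:21539365-21539748), 305 bp upstream of its own TSS and 110 bp upstream of COX8, a cytochrome c oxidase subunit gene. Its ranks in replicates 1 and 2 were 1373 and 1488, both ahead of its pooled rank. VhaM9.7-c and VhaM9.7-a had pooled summits of 73.4 and 64.6 at ranks 6901 and 8414, the latter 13 bp from the start of CG11586. VhaM9.7-d had none in any list. Of the accessory subunit genes, VhaAC45 had a pooled summit of 54.2 at rank 11096, between it and Gnptab, and VhaAC45RP had one of 29.4 at rank 29688, near the end of the list.

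**Figure D1:**
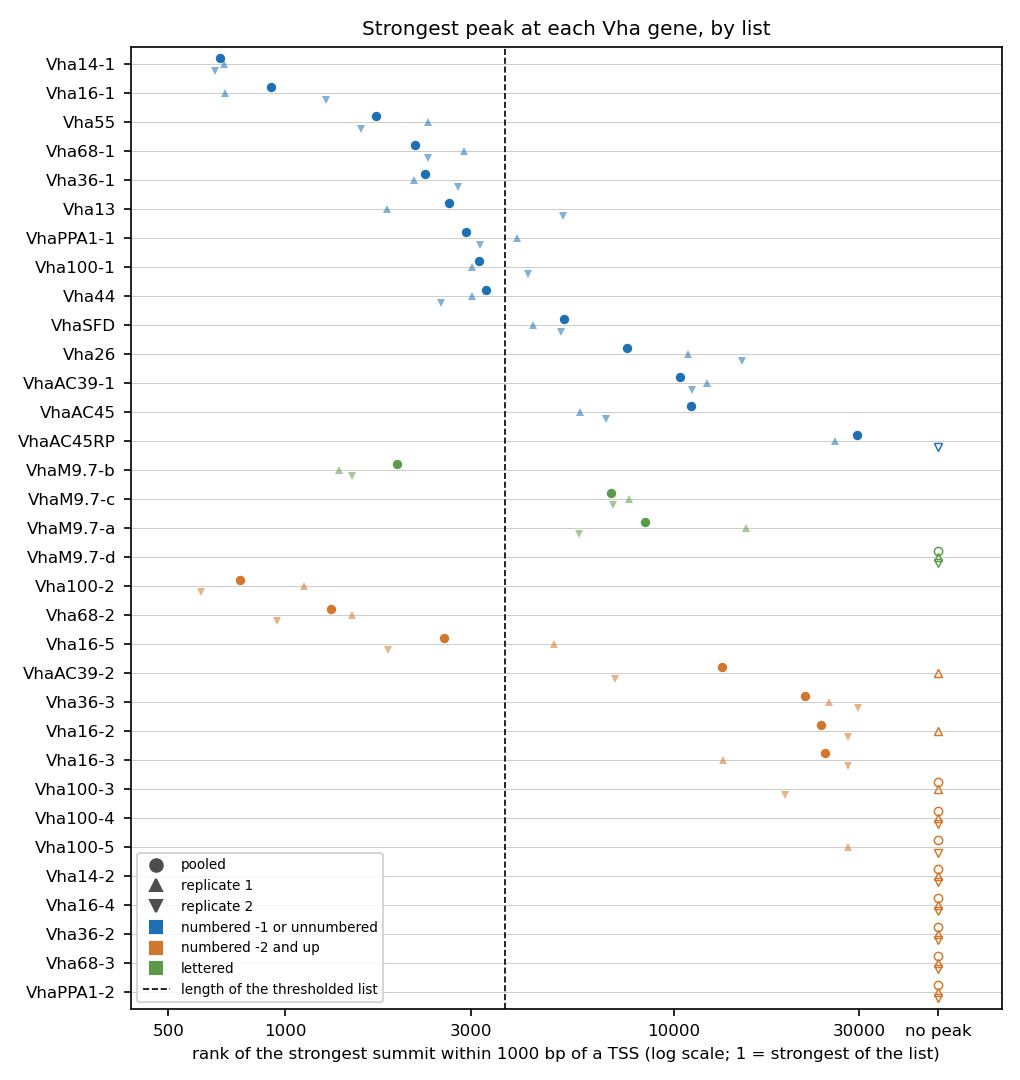
Rank of the strongest summit within 1000 bp of a TSS for each of the 33 Vha genes (vertical axis) in the pooled list and in each replicate's list (horizontal axis, log scale, 1 is the strongest peak), coloured by copy. Filled symbols left of the dashed line, at rank 3672, fall among the 3672 strongest of their list, and open symbols at the right mark genes with no summit in range. All 14 first copies have a filled pooled symbol, against 7 of the 15 further copies.

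A summit within 1000 bp was more frequent at first copies than at further copies in each of the 4 lists. Any pooled summit in range was found at 14 of 14 first copies and 7 of 15 further copies, with 24 of all 33 genes (72.7%) against 63.5% of protein-coding genes. The full replicate 1 list reached 23 of the 33 genes, where the share of all protein-coding genes was 62.9%, and that of replicate 2 reached 24, where it was 63.6%. In replicate 1 these included 14 first and 6 further copies, and in replicate 2 they included 13 first and 8 further copies. The 7 genes without a summit in any list were the further copies Vha14-2, Vha16-4, Vha36-2, Vha68-3, Vha100-4 and VhaPPA1-2, and VhaM9.7-d. They made up 21.2% of the 33 genes, where 27.9% of all protein-coding genes had no summit in any list. By copy this was 0 of 14 first copies and 6 of 15 further copies (40%). The strongest pooled summit of the 14 first copies had a median rank of 3036.5, that of the 7 further copies with one a median of 13317, and that of the 8872 protein-coding genes with one a median of 6187. These are descriptions of a small gene family, chosen with results of these data known, and no test was made over it.

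Peak height was also read among the genes that had a peak. Of the 24 genes with a pooled summit in range, 13 also had a thresholded one (54.2%), where the share over protein-coding genes was 34.2%. This was 9 of 14 for first copies and 3 of 7 for further copies. Among first copies, thresholded summits were at 6 of the 7 whose subunit has a further copy, all but VhaAC39-1, and at 3 of the 7 that stand without one. These last 7 include VhaAC45 and VhaAC45RP, which has no number and so was taken as a first copy. With VhaAC45RP counted as a further copy, thresholded summits were at 9 of 13 first and 3 of 16 further copies. Within the subunits that have both kinds of copy, a further copy ranked ahead of the first for Vha68 and Vha100, and the first copy had the higher pooled peak for Vha16, Vha36 and VhaAC39. For Vha14 and VhaPPA1 the further copy had none. For Vha100 the order rests on a summit nearer to Vti1b (205 bp) than to the internal TSS of Vha100-2 (272 bp). Pooled summits 213 and 4 bp downstream of the start of the Vha100-2 gene record had 54.3 and 37.5, below the 116.1 of Vha100-1. The order was not stable for VhaAC39: in replicate 2, VhaAC39-2 ranked 7071 and VhaAC39-1 ranked 11150, while in replicate 1 VhaAC39-1 ranked 12169 and VhaAC39-2 had no summit in range.

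The replicates gave similar counts. Among the 3672 strongest peaks of replicate 1, summits in range were at 11 of the 33 genes, where 22% of protein-coding genes had one, and in replicate 2 also at 11, where 21.2% had one. They included 8 first and 2 further copies in replicate 1, and 7 first and 3 further copies in replicate 2. All 14 thresholded peaks at these genes, counting both at Vha100-2, were matched in both replicate lists, which the authors' threshold favours by its construction. Of them 9 were among the 3672 strongest in both. Counted by gene, 9 of the 33 genes (27.3%) had a summit in range among the 3672 strongest of both replicates. The share of protein-coding genes was 17%. By copy this was 6 of 14 first copies and 2 of 15 further copies. For the 14 thresholded peaks, replicate summits lay a median of 25.5 bp from the pooled summit in replicate 1 and 40.5 bp in replicate 2. The shift was at most 135 bp in either.

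Most summits lay close to and upstream of the start. At the 13 genes, the thresholded summit closest to a TSS of the gene was also the strongest. It was a median of 133 bp from that TSS, upstream in 11, and within 350 bp in 11. Over the 3036 protein-coding genes with a thresholded summit, the closest one was a median of 147 bp away. It was upstream in 76.7% and within 350 bp in 82.3%, so in position the Vha genes resembled the rest. The exceptions were Vha14-1 and Vha13, whose summits lay downstream, and of the 13 only Vha14-1 and Vha16-5 lay farther than 350 bp.

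**Figure D2:**
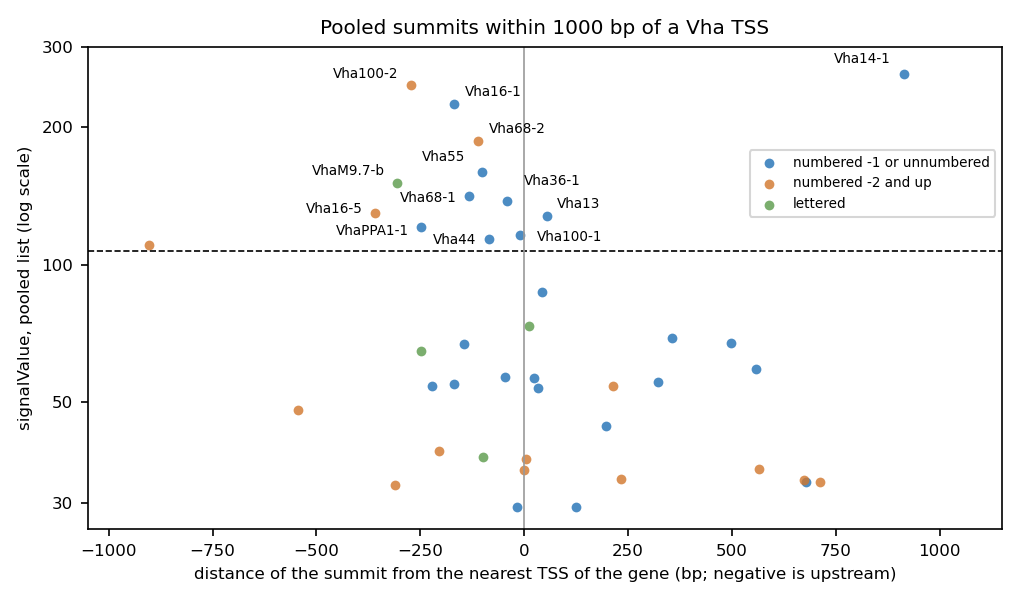
Each point is 1 pooled summit within 1000 bp of a Vha gene's TSS, placed by its distance from that TSS in bp (horizontal axis, negative is upstream) and its signalValue in the pooled list (vertical axis, log scale), and coloured by copy. Points above the dashed line, the lowest thresholded signalValue of 107, are thresholded, and the strongest such summit of each of the 13 genes is named. Of these 13 summits, 10 lie within 350 bp upstream, and the others are Vha14-1 at 913 bp downstream, Vha13 at 54 bp downstream and Vha16-5 at 358 bp upstream.

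The gap between first and further copies depended on the distance allowed and on how strict the list was. Among the 1836 strongest thresholded peaks, summits within 1000 bp were at 3 of 14 first copies (21.4%) and 2 of 15 further copies (13.3%), with 12% of protein-coding genes having one. Within 250 bp, thresholded summits were at 8 first copies and 1 further copy, with 16% of protein-coding genes having one. Within 5000 bp they were still at 9 first copies but at 9 further copies, with 39.4% of protein-coding genes. The additional further copies were Vha36-3, VhaAC39-2, Vha100-4, Vha100-5, Vha68-3 and VhaPPA1-2. The summit reached from Vha68-3, 4575 bp away, is the one upstream of Vha68-2 described above, and 1 of the 3 reached from VhaPPA1-2 is that of VhaPPA1-1. Others lie at starts of other genes: the summit 2228 bp from VhaAC39-2 is in range of unk, and that 1690 bp from Vha36-3 is in range of AANATL7.

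**Figure D3:**
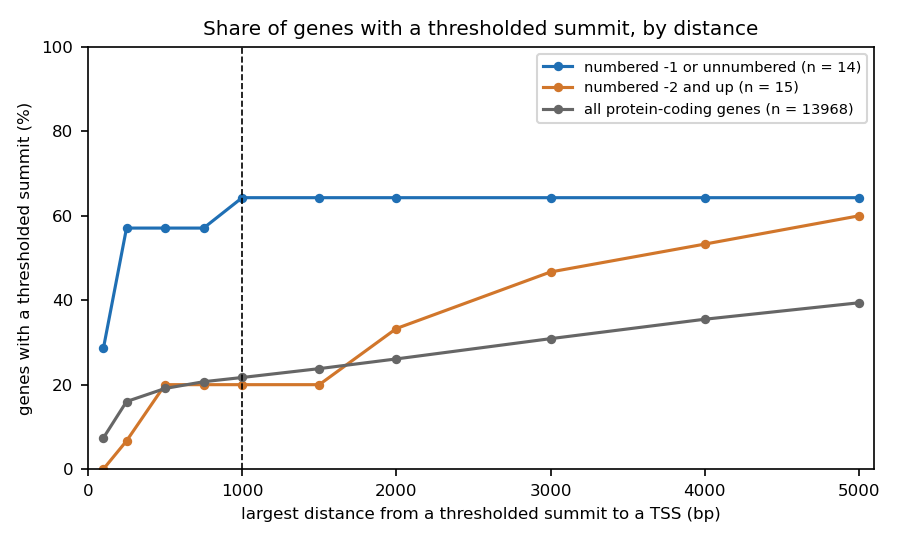
Share of genes with a thresholded summit (vertical axis, %) by the largest distance allowed to a TSS (horizontal axis, bp), for the 14 first copies, the 15 further copies and 13968 protein-coding genes. The line for first copies is flat at 64.3% from 1000 bp on, and that for further copies climbs from 20% at 1500 bp to 60% at 5000 bp.

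Many of these genes start close to another gene on the other strand. A gene was called head-to-head where the nearest start of another gene lay within 1000 bp, on the other strand and pointing away. Distance was measured from the start of the gene record, and starts beyond the nearest one were not considered. This held at 9 of 14 first copies, 3 of 15 further copies and 2 of 4 lettered genes, and at 34.9% of protein-coding genes. Thresholded summits were at 10 of the 14 head-to-head Vha genes and at 3 of the 19 others, namely Vha16-1, VhaPPA1-1 and Vha68-2. These counts concern the arrangement of the genes and not the place of the peak: of the 10, the strongest thresholded summit lay between the paired starts at 6, and elsewhere at 4, namely Vha13, Vha14-1, Vha16-5 and Vha100-2. Over all protein-coding genes the shares were 35.7% and 14.3%. Gene arrangement thus moves with the difference between first and further copies, and its part in that difference was not tested. Within the head-to-head genes, 7 of 9 first and 2 of 3 further copies had a thresholded summit, and without such a neighbour 2 of 5 and 1 of 12.

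**Figure D4:**
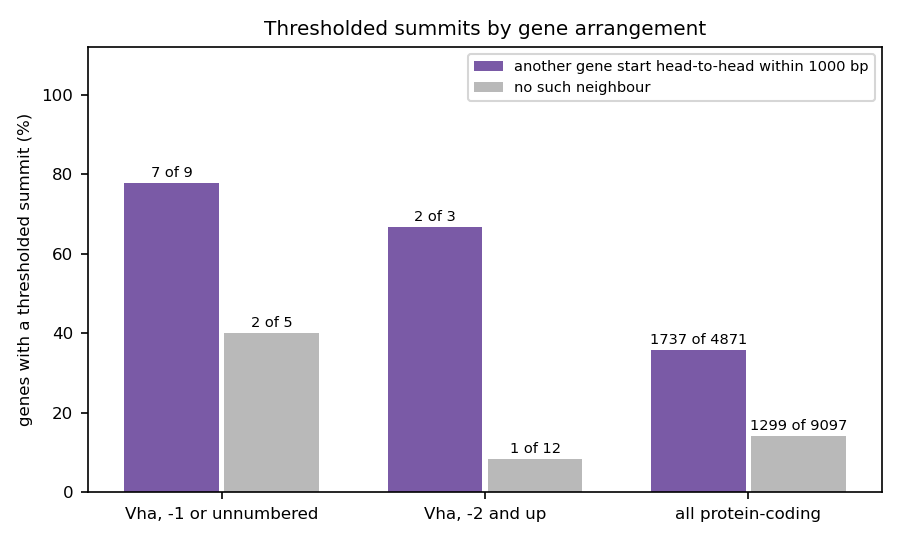
Share of genes whose TSS lies within 1000 bp of a thresholded summit (bars, %), among first copies, further copies and all protein-coding genes. Genes are split by whether the nearest start of another gene is head-to-head within 1000 bp. Numbers above the bars give genes with a summit of all genes in the class, from 1 of 12 further copies without such a neighbour to 7 of 9 first copies with one.

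When a summit was given only to the gene with the nearest TSS, 6 of the 33 Vha genes kept a thresholded peak (18.2%), where the share of protein-coding genes was 15.3%. They were 5 first copies, Vha13, Vha16-1, Vha68-1, Vha100-1 and VhaPPA1-1, and the further copy Vha68-2. At the other 7 genes the nearest start was that of Gmppa, Vti1b, Snx3, COX8, CG8187, CG12299 or Hmgs. At Vha55, Vha36-1 and Vha44, however, both starts lay within 102 bp of the summit. First copies were also larger than further copies, with a median span of 2779 bp against 1470 bp. The median over protein-coding genes, 2164.5 bp, lay between them. The ranges overlapped, from 659 to 11825 bp at first copies and from 567 to 8847 bp at further copies. First copies had a median of 4 exons against 2 in the longest-spliced transcript.

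The base composition and words at the summits were varied. Within 50 bp of the summit, GC content averaged 39.6% (SD 12, n = 13 peaks, from 26.7% at Vha16-1 to 63.4% at Vha44), against 34.1% over all 3672 thresholded peaks. At the 11 Vha genes with a weaker pooled summit alone it averaged 40.8%, where all other pooled peaks averaged 41.3%. The difference between the 13 peaks and all thresholded peaks depended on the window and the statistic. Within 50 bp the medians were 38.6% and 32.7%. Within 100 bp the means were 40.1% and 36%, but the medians were 34.3% and 35.3%. Of the 7 words searched on both strands, the E-box CACGTG was at 1 of the 13 summits, that of Vha44, in the longer form TCACGTGA that holds it. CACGTG was at 0.871% of all thresholded peaks and TCACGTGA at 0.0817%, or 3 peaks. TCGATA, known as a site of the insulator protein BEAF-32, was at 2 of 13, Vha36-1 and Vha68-2, against 8.01%, and the Dref element TATCGATA, which holds TCGATA, was at 0 of 13, against 2.02%. GAGAG, the core of GAGA factor sites, was at 3 of 13 (Vha44, Vha68-2 and Vha100-2), against 10.9%. Such counts depended on the window. Within 25 bp of the summit, CACGTG and GAGAG were at 0 of 13, against 0.327% and 4.71%, and TCGATA at 1 of 13, against 3.84%. Within 100 bp, CACGTG was at 1 of 13, against 2.07%, GAGAG at 4 of 13, against 23.4%, and TCGATA at 4 of 13, against 14.9%.

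The A- and T-rich words were at few of the 13 summits. TATAAA was at 2 of 13, Vha16-1 and Vha100-1, where 23.4% of all thresholded peaks held it, and TTTAAAA was at 1 of 13, Vha16-1, where 13.9% did. Within 100 bp, TATAAA and TTTAAAA were each at 3 of 13 (23.1%), against 36.8% and 23.1% of all thresholded peaks. With 13 peaks, a single summit moves such a share by 7.69 percentage points.

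The same 7 words were counted in promoters. The promoter was taken as 250 bases before to 50 after the start of the gene record. There, CACGTG was at 2 of 14 first copies, Vha44 and VhaAC45RP, at 0 of 15 further copies and at 4.2% of protein-coding genes. It was also at 1 of 4 lettered genes, VhaM9.7-d, which had no summit in any list. VhaAC45RP was taken as a first copy only because it has no number. TATCGATA was at 2 of 14 first copies, Vha55 and VhaSFD, at 0 of 15 further copies and at 9.36% of protein-coding genes. TCACGTGA was at 1 of 14 and 0 of 15, against 0.172%, and TCGATA at 5 of 14 and 2 of 15, against 27.7%. Of the A- and T-rich words in this window of 300 bases, TATAAA was at 7 of 14 first copies (50%) and 8 of 15 further copies (53.3%), against 45.8%, and TTTAAAA at 6 of 14 (42.9%) and 6 of 15 (40%), against 27.7%. GAGAG was at 3 of 14 (21.4%) and 5 of 15 (33.3%), against 29.7%. A word in such a window is a description of its letters and not a binding site.

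Genes that work with the pump were read for comparison, in 4 lists of 35 genes, and 13 had a thresholded summit in range (37.1%, beside the 21.7% of all protein-coding genes). Of 4 genes for pump assembly and regulation, these were Mitf, the transcription factor of this pathway, with 143.2 at 536 bp downstream, and Rbcn-3B, a rabconnectin that promotes V1 and V0 assembly, with 155.8 at 900 bp upstream. Of 11 genes of mTORC1 at the lysosome they were Lamtor3, a Ragulator subunit, mTor, Rheb, the GTPase that activates mTORC1, and raptor. The Lamtor3 peak, 72 bp upstream, had a signalValue of 446.7 and rank 228, above any Vha gene, and the mTor peak is the one shared with Vha68-1. Of 13 lysosomal enzymes and membrane proteins they were Hexo2 (199.3), CtsL1 (173.2), Ppt1 (141.9), CtsF (127.5) and Lamp1 (118.5). Of 7 HOPS and CORVET tether genes, which act in fusion with the lysosome, they were car and Vps8.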

How the data were processed

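ChIP-seq peak lists of 1 group with 2 biological replicates were used, on dm6 per the labels. Per the deposited manifests, each replicate's list was called against 1 control alignment, the pooled list on both replicates, and the thresholded list passed an irreproducible discovery rate threshold; the control was not analysed here. The sources used here do not name the aligner or the peak caller. The deposited signalValue is the authors' score, on a scale specific to each list, and the authors' −log10 q-value column served only as an alternative ranking. One position repeated in the pooled and replicate 2 lists was counted 1 time. The lists hold no counts, so depth and its precision are unknown. Per the labels, sheared chromatin was 200 to 800 bp.

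TSSs came from Ensembl release 115 without transposable elements (24111 TSSs of 18277 genes), and bases from the Release 6 assembly. Analyses used Python 3.11.15, numpy 2.4.6, pandas 2.3.3 and matplotlib 3.10.9; the assignment of summits to TSSs was tested on simulated data. Each Vha gene is named. Full values are given for those with a thresholded summit and for further copies of those subunits. Genes sharing a peak, and listed genes with a thresholded summit, are also named. The genes and lists were chosen with earlier results of these data known, so none was tested. Alternatives covered distance, the nearest gene, a stricter list, each replicate alone, peak intervals and copy classes. No sequence from arm 2R is printed.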

Additional observations from a re-analysis of the deposited data

How the results depend on the processing

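Over the 4 counts of Vha genes, 40 of 48 alternatives stayed within 1.5 times the reported count. Some of the 48 could not move their count. No Vha genes shared a thresholded peak with each other, so leaving such genes out changed nothing. Leaving out Vha14-1, a first copy, could not change the count of further copies. The tally scores counts alone and does not set them against the share of all protein-coding genes. Thresholded summits within 5000 bp were at 20 Vha genes (60.6%), where 39.4% of protein-coding genes had one. They were at 9 further copies, and within 250 bp at 1 further copy. Giving a summit to the nearest gene alone left 6 genes (18.2%, where 15.3% of protein-coding genes had one). Of these, 5 were first copies and 1 a further copy. In the 1836 strongest thresholded peaks there were 5 genes (15.2%, where 12% of protein-coding genes had one), 3 of them first copies, with 2 further copies. Why these counts moved was not tested. With each replicate alone, the counts were 11 in all, 7 to 8 first copies, 2 to 3 further copies, and 23 to 24 genes with any summit. Without Vha14-1, an alternative chosen after seeing the data, 12 genes and 8 first copies remained. The median strongest pooled summit of the 24 genes stood at 10.7% of the list, 11.4% when ranked by q-value, and at 13.2% and 15.6% in replicates 1 and 2. No paired analysis was possible because there is 1 group. Depth sets which weak peaks could be called, and it is unknown.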
